A study of Homo sapiens with 11 samples.

Results

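Expression of HSD11B1, the enzyme that regenerates active glucocorticoid inside cells, was described in xenograft tumours together with the glucocorticoid receptor gene NR3C1 and 7 genes that glucocorticoids are known to induce: FKBP5, TSC22D3, PER1, ZBTB16, DUSP1, SGK1 and KLF9. These 9 genes were taken by symbol from a table of 28152 genes, and 9 of 9 passed the filter on low counts. HSD11B1 was selected on its measured log2 fold change between the groups, which was among the lowest, so its difference between the groups is given as a description without a test. The other 8 genes were chosen for their known part in the glucocorticoid response.

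The study sequenced RNA from 11 tumours of cells labelled BT474, a human breast cancer line whose label gives it as positive for hormone receptors (HR+) and Her2. Cells in 50% Matrigel were placed in the mammary fat pad of female athymic nude mice, which lack a thymus and so lack most mature T cells but keep other leukocytes. All mice of both groups carried an estradiol pellet (0.72 mg, made to last 90 days), and tumours could enter the study above 95 cubic millimetres. The vehicle group (6 tumours) received 5% mannitol in water under the skin every 4 days. The evexomostat group (5 tumours) received 12 mpk of evexomostat (SDX-7320), an inhibitor of methionine aminopeptidase 2, by the same route and interval. The label gives day 33 for all 11 tumours. All libraries come from 1 line, and whether each tumour came from its own mouse is not given, so p-values measure the spread between these libraries only.

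HSD11B1 encodes 11beta-hydroxysteroid dehydrogenase type 1, which sits in the endoplasmic reticulum and turns inactive cortisone, or 11-dehydrocorticosterone in the mouse, into the active hormone, using NADPH that H6PD supplies there. Active hormone binds the receptor in the cytoplasm, where HSP90 and co-chaperones hold it, and the receptor then moves to the nucleus, where it binds glucocorticoid response elements and also restrains inflammatory genes. HSD11B1 is known for high levels in liver and fat, and for induction by inflammatory cytokines and C/EBP factors in stromal cells.

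To show the DNA before the start of the genes on which the results turn, RefSeq promoter windows (GRCh38.p14) were matched by symbol for 8 of 9 genes, in 20 windows, and the 250 bases before each start were searched on both strands. HSD11B1 (chr1:209685929-209686178, plus strand) is shown because it had the widest difference between the groups. PER1 (chr17:8152405-8152654, minus strand) and TSC22D3 (chrX:107717063-107717312, minus strand, the start that has a TATA box) are receptor targets that shared most of their lowest tumours with ZBTB16, and DUSP1 (chr5:172771196-172771445, minus strand) is a target that did not share their order of tumours. Capitals mark the matches described after the sequences, and all are written 5′ to 3′ on the strand of the gene.
HSD11B1: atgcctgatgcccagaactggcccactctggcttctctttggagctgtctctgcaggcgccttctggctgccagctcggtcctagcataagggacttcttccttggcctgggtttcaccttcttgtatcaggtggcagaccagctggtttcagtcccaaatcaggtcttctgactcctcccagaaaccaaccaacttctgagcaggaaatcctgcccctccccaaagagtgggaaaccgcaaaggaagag
PER1: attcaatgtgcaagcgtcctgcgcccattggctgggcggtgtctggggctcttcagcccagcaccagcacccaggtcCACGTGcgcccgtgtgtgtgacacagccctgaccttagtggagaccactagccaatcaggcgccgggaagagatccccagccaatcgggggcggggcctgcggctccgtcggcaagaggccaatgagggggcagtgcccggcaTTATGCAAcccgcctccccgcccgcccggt
TSC22D3: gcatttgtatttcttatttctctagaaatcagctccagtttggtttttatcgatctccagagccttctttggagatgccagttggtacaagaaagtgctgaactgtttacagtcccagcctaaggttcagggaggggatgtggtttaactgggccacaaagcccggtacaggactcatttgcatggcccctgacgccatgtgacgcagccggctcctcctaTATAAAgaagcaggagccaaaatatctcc
DUSP1: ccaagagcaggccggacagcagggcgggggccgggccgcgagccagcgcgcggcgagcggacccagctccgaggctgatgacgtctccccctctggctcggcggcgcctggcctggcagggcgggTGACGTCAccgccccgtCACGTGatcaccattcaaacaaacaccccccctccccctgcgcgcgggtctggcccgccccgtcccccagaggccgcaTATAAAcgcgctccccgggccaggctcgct

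The full palindromic glucocorticoid response element, which is the hexamer AGAACA and its reverse complement with 3 bases between them, was present in 0 of these 20 windows and in 0.00285% of 35116 such windows over all genes. The hexamer alone was present in 0 of the 20 windows, against 12.4% of all windows. The HSD11B1 window held no match to any motif searched, which says only that these letters are not in those 250 bases. In PER1 the capitals are an E-box of the clock proteins, CACGTG, and an element of the C/EBP type, TTGCNNAA, on the other strand. CACGTG was present in 3 of the 20 windows (of DUSP1, FKBP5 and PER1) and in 6.34% of all windows, and TTGCNNAA in 3 of 20 (of NR3C1, SGK1 and PER1) and in 9.05%. In DUSP1 the capitals are a cyclic AMP response element, TGACGTCA (1.65% of all windows), an E-box and a TATA box, TATAAA. The letters TATAAA, on either strand, were present in 6 of the 20 windows (of NR3C1, DUSP1, SGK1 and TSC22D3) and in 10.7% of all windows. They began 30 and 29 bases before the start in DUSP1 and TSC22D3, 187 in NR3C1, and 96, 27 and 15 in the windows of SGK1. Whether each match is a working TATA box was not tested. The count data hold no measure of binding at these bases.

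Library totals ran from 22808033 to 39249329 counts, and 3 counts corresponded to 0.0764 to 0.132 RPM (reads scaled to a common library total), a limit that covers counting error only. The 100 most abundant genes took up 23.91% of all counts in vehicle replicate 001, which stood apart, and 16.19% to 17.86% in the remaining libraries. The hormone receptor label was not borne out by its receptor genes: ESR1 was at most 0.625 CPM (the same scale after TMM correction of the totals) and PGR at most 0.143 CPM in the 11 tumours. ERBB2, which encodes Her2, was at 26.7 to 66.5 CPM, and with no other line beside it this level was not judged against the label. Of the other luminal genes listed, KRT19, CDH1, FOXA1 and TFF1 were at most at 1.65, 1.34, 1.91 and 0.242 CPM. EPCAM was at most at 5.28 and GATA3 at most at 10.2 CPM, while KRT8 was at 167 to 562 and KRT18 at 100 to 193 CPM. The mesenchymal gene VIM was at 696 to 1680 CPM. The other mesenchymal or basal genes listed were CD44 (564 to 1750 CPM), CDH2 (34.5 to 114), ZEB1 (22.9 to 35.5), SNAI2 (9.68 to 21.9), KRT5 (9.12 to 269) and KRT14 (1.33 to 23.8). "BT474" is used here as the label only. Levels below are CPM scaled with TMM factors, so that tumours can be compared for 1 gene, and they are not corrected for gene length, so that genes are not compared with each other by level. In tumour tissue, fewer cells of a type and less RNA per cell cannot be told apart.

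HSD11B1 was lower in every evexomostat tumour than in every vehicle tumour. It was at 10.08 CPM in the lowest vehicle tumour (replicate 001), at a median of 24.06 and at 71.08 in the highest (replicate 007). The evexomostat tumours were at 0.93 (replicate 002), 4.01 (003), 3.77 (004), 1.99 (005) and 1.46 CPM (007). The lowest vehicle value was 2.51 times the highest evexomostat value, so the groups did not overlap. Over all 16653 tested genes, 1.64% were lower without overlap, and HSD11B1 was selected on its difference between these groups. Means were 29.91 ± 22.07 CPM (SD, n = 6) and 2.43 ± 1.39 CPM (SD, n = 5), giving a log2 fold change of -3.63 (SE 0.55). Counts behind these levels were 30 to 1934 per library, well above the limit of 3. Vehicle tumours spread over a 7.05-fold range and evexomostat tumours over a 4.31-fold range. Leaving out each of the 11 libraries in turn gave log2 fold changes of -3.88 to -3.17.

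Reads of HSD11B1 may be shared with HSD11B1-AS1, an antisense transcript that overlaps it, since the use of strand in counting is not given in the sources used here. HSD11B1-AS1 had only 1 to 41 counts per library, with a log2 fold change of -1.87 (SE 0.62, adjusted p 0.204 in edgeR), and its groups overlapped. The opposing enzyme HSD11B2, which inactivates cortisol in kidney and other tissues, had 2 to 16 counts per library and did not pass the count filter. In the tumours as sequenced, HSD11B2 was thus close to the limit of detection in both groups, at 0.24 ± 0.15 CPM (SD, n = 6) under vehicle and 0.23 ± 0.13 CPM (SD, n = 5) under evexomostat.

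**Figure D1:**
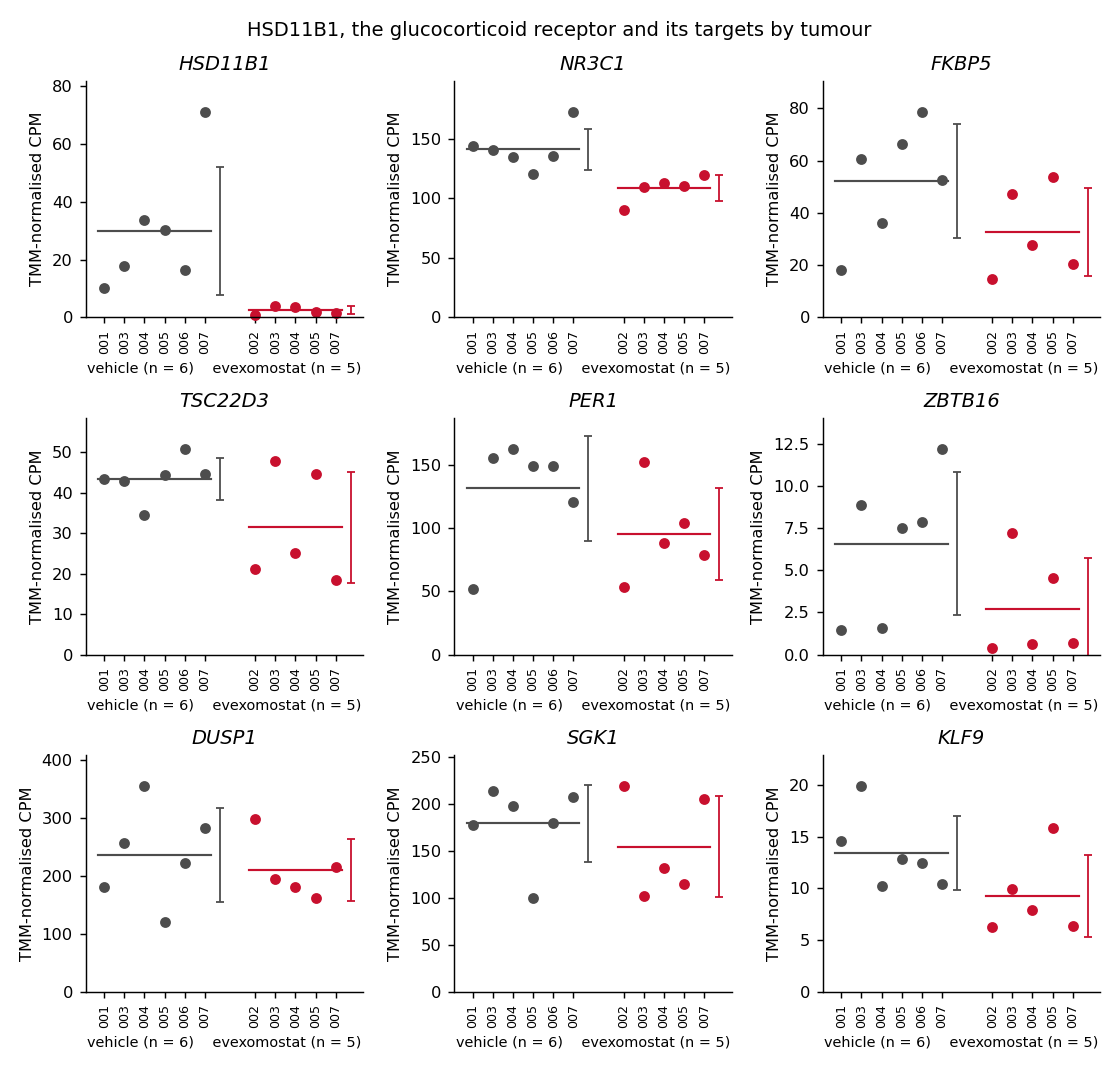
TMM-normalised CPM (linear axes from 0) of the 9 genes in each tumour, labelled by replicate number, with grey points for 6 vehicle and red points for 5 evexomostat tumours; horizontal lines are group means and bars beside them are SDs, cut off at 0 where they would reach below it. The groups separate in HSD11B1 and, by a narrow margin, in NR3C1, and they overlap in the other 7 panels.

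The receptor gene NR3C1 was lower in every evexomostat tumour, but by a small margin. Its levels were 120.6 CPM in the lowest vehicle tumour (replicate 005), 138.2 at the median and 172.7 in the highest (replicate 007). The evexomostat tumours were at 90.3 (002), 109.4 (003), 113.1 (004), 110.6 (005) and 120.0 CPM (007). The groups did not overlap, with a ratio of 1.01 between the lowest vehicle and the highest evexomostat value, and 1.64% of 16653 tested genes likewise had all evexomostat tumours below all vehicle tumours (2.97% in either direction). The log2 fold change was -0.38 (SE 0.12), with an unadjusted p of 0.00837 and an edgeR adjusted p of 0.193, so that NR3C1 did not pass the threshold of 0.05.

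FKBP5 encodes a co-chaperone of HSP90 that lowers the receptor's affinity for hormone and is itself induced by it. It was at 18.0 CPM in the lowest vehicle tumour (replicate 001), at a median of 56.6 and at 78.7 in the highest (006), and at 14.6 (002), 47.1 (003), 27.8 (004), 53.6 (005) and 20.4 CPM (007) in the evexomostat tumours. Only evexomostat 002 lay below all vehicle tumours. The evexomostat tumours 003, 004, 005 and 007 lay within the vehicle range, with 004 and 007 toward its low end. FKBP5 thus had a log2 fold change of -0.67 (SE 0.38, adjusted p 0.485 in edgeR).

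TSC22D3, also called GILZ, encodes a leucine zipper protein that restrains NF-kB and AP-1. Its vehicle tumours were close together, from 34.4 (replicate 004) through a median of 43.8 to 50.8 CPM (006). The evexomostat tumours fell into separate levels, with 47.8 (003) and 44.5 CPM (005) at the vehicle level and 21.2 (002), 25.2 (004) and 18.4 CPM (007) below all vehicle tumours. The SD of log2 CPM was 0.182 under vehicle and 0.627 under evexomostat, a difference that was not tested. For TSC22D3 the log2 fold change was -0.47 (SE 0.24, adjusted p 0.428 in edgeR).

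PER1 encodes a repressor of the circadian clock whose gene is also an immediate target of the receptor. It was at 52.0 CPM in vehicle replicate 001, at a vehicle median of 149.5 and at 162.9 in the highest vehicle tumour (004). The evexomostat tumours were at 53.3 (002), 152.6 (003), 88.6 (004), 104.0 (005) and 79.2 CPM (007), of which 4 were below the vehicle median and none below the lowest vehicle tumour. The log2 fold change was -0.46 (SE 0.30, adjusted p 0.548 in edgeR). PER1 passed in 1 of 21 alternative settings, limma-voom with quality weights, which gives less weight to libraries that stand apart (adjusted p 0.0361).

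ZBTB16, or PLZF, encodes a zinc finger transcription factor that is strongly induced by glucocorticoids in many cell types. It had the widest spread of the 8 genes, with 1.45 CPM in the lowest vehicle tumour (001), a median of 7.67 and 12.2 in the highest (007), and 0.40 (002), 7.21 (003), 0.62 (004), 4.57 (005) and 0.72 CPM (007) under evexomostat. The levels were either below 1.61 CPM (vehicle 001 and 004, evexomostat 002, 004 and 007) or at least 4.57 CPM, with no tumour between. The log2 fold change was -1.29 (SE 0.77, adjusted p 0.506 in edgeR), on 13 to 344 counts per library.

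KLF9, a Krüppel-like transcription factor induced by glucocorticoids in epithelium and brain, was at 10.2 CPM in the lowest vehicle tumour (004), at a median of 12.6 and at 19.9 in the highest (003). The evexomostat tumours were at 6.21 (002), 9.88 (003), 7.93 (004), 15.9 (005) and 6.31 CPM (007), 4 of 5 below all vehicle tumours. Replicate 005 was the exception and kept the groups overlapping. KLF9 had a log2 fold change of -0.53 (SE 0.26, adjusted p 0.410 in edgeR).

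DUSP1, a phosphatase that switches off p38 and JNK kinases, was at 120.1 (vehicle 005) to 355.2 CPM (vehicle 004), with a vehicle median of 239.1, and at 299.2 (002), 195.6 (003), 181.7 (004), 162.1 (005) and 214.8 CPM (007) under evexomostat. The groups overlapped over nearly their whole range, with a log2 fold change of -0.17 (SE 0.25, adjusted p 0.842 in edgeR). SGK1, a kinase that raises sodium transport and cell survival, was at 100.1 (vehicle 005) to 213.1 CPM (vehicle 003), with a vehicle median of 188.2. Under evexomostat it was at 218.6 (002), 101.4 (003), 131.4 (004), 114.5 (005) and 205.3 CPM (007). Here the tumours 002 and 007, low in FKBP5 and ZBTB16, were the high ones. The log2 fold change of SGK1 was -0.21 (SE 0.24, adjusted p 0.767 in edgeR).

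Of the 8 genes other than HSD11B1, 0 passed an edgeR adjusted p of 0.05 in either direction, where 0.606% of all 16653 tested genes did (0.432% lower and 0.174% higher). At an unadjusted p under 0.05, 1 of 8 was lower (NR3C1), where 8.55% of all genes were, and DESeq2 likewise called 0. The 8 log2 fold changes were all negative, from -1.29 to -0.17 with a median of -0.47, beside 55.4% negative and a median of -0.04 over all tested genes. They were negative under all 21 alternative settings, in which 1 call arose (PER1 with quality weights). An adjusted p above the threshold does not show that these genes were alike in both groups. In data simulated from these libraries, the same test recovered 60% of 2-fold changes in randomly drawn genes. Apart from ZBTB16, the 8 genes had smaller fold sizes, of 1.12 to 1.60, and the recovery of changes of that size was not simulated. In the authors' deposited table the adjusted p-values of the 8 genes ranged from 0.732 to 1.0.

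**Figure D2:**
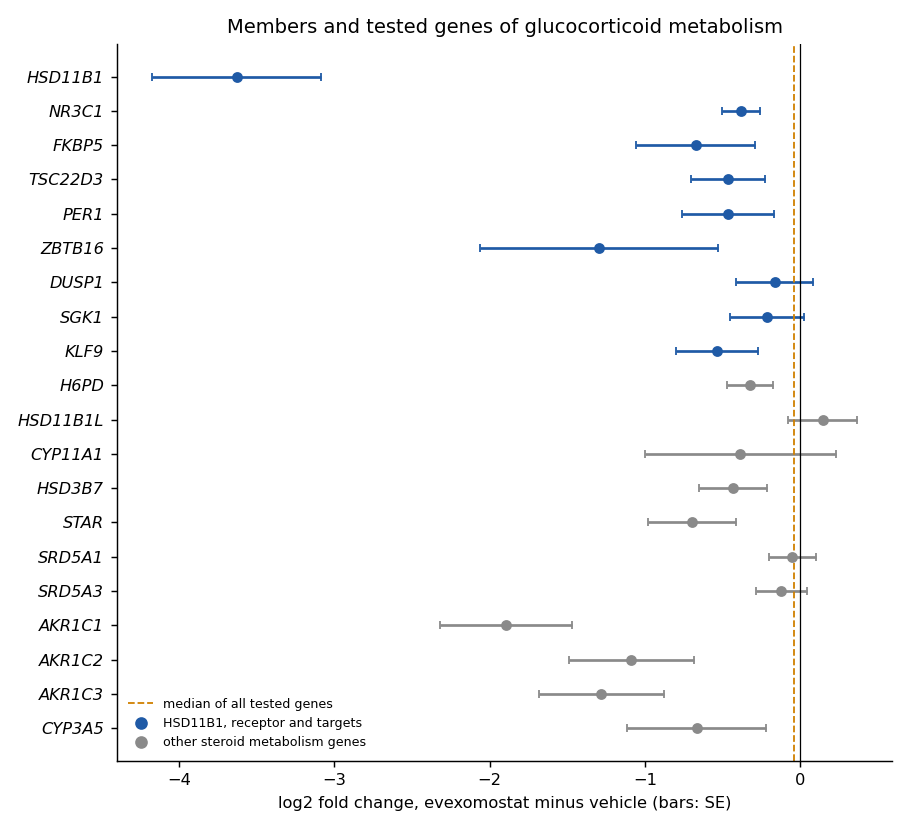
Log2 fold change (evexomostat minus vehicle, bars are SE from edgeR) of the 9 genes in blue and of 11 further tested genes of glucocorticoid and related steroid metabolism in grey; the dashed line is the median of all tested genes, -0.04. HSD11B1 lies at -3.63, the other 8 blue points between -1.29 and -0.17, and AKR1C1 is the lowest grey point at -1.90.

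The receptor targets ZBTB16 and FKBP5 were low in the same tumours of both groups, and the other targets shared this order only in part. The 5 tumours lowest in ZBTB16 (vehicle 001 and 004, evexomostat 002, 004 and 007) were also the 5 lowest in FKBP5. They were also the 5 lowest in SCNN1A, a subunit of the epithelial sodium channel, and in MAOA, which degrades monoamines. Both are genes that glucocorticoids induce, and they were singled out after their values were seen. SCNN1A was at 1.75 and 4.81 CPM in vehicle 001 and 004, at 1.80, 3.55 and 2.58 in evexomostat 002, 004 and 007, and at 7.50 or more in the other 6 tumours. MAOA was at 1.36 and 2.81, at 0.62, 1.78 and 0.93, and at 4.34 CPM or more, in the same order.

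Of these 5 tumours, 4 were among the 5 lowest in TSC22D3, PER1 and KLF9, 3 in HSD11B1 and NR3C1 and 2 in DUSP1 and SGK1. The tumour that was missing could lie at the other end. Vehicle 004 was the highest of 11 in PER1 (162.9 CPM), and vehicle 001 had rank 3 from the top in KLF9 and rank 6 in TSC22D3. Exactly this set of 5 was the lowest in 45 of 16653 tested genes (0.27%), among them 4 of 42 tested induced targets, of which ZBTB16 defined the set. The 462 possible sets of 5 had a median of 24 genes each, and the most frequent set, vehicle 003 to 007, was the lowest in 462 genes. The set was taken from the values it describes, so these counts support nothing. The evexomostat tumours 003 and 005 lie outside this set, so by its choice they were among the 6 highest of 11 in FKBP5, ZBTB16, SCNN1A and MAOA. In TSC22D3 they had ranks 2 and 4 from the top. Their ranks were 3 and 7 in PER1, 8 and 2 in KLF9, 7 and 10 in DUSP1, and 10 and 9 in SGK1. HSD11B1 was at 4.01 and 1.99 CPM in evexomostat 003 and 005, and in this gene all 5 evexomostat tumours were below every vehicle tumour. Vehicle replicate 004, in contrast, was the second highest in HSD11B1 at 33.85 CPM and among the 5 lowest in FKBP5 and ZBTB16. The grouping of tumours was seen in these values and is a description. The summed level of 6 skeletal muscle markers was highest in evexomostat replicate 005 (313.4 CPM, against at most 16.69 in the vehicle tumours). This sum came almost wholly from ACTA1, MYH1 and MYH2, at 139.6, 99.2 and 74.17 CPM in that tumour. CKM, TNNT3 and MYLPF did not exceed 0.339 CPM in any tumour and were each highest in another one. In evexomostat replicate 004, ACTA1, MYH1 and MYH2 were at 23.41, 9.456 and 6.594 CPM. Each was above its highest vehicle value (5.963, 8.784 and 5.109 CPM). The sum had a median of 14.5 CPM under evexomostat, with a lowest value of 1.303, and a median of 5.349 under vehicle. All 3 tested muscle markers were higher at the unadjusted threshold of the other lists (median log2 fold change 3.48). At the adjusted threshold 0 passed. The part of muscle in the values of the evexomostat tumours was not tested.

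**Figure D3:**
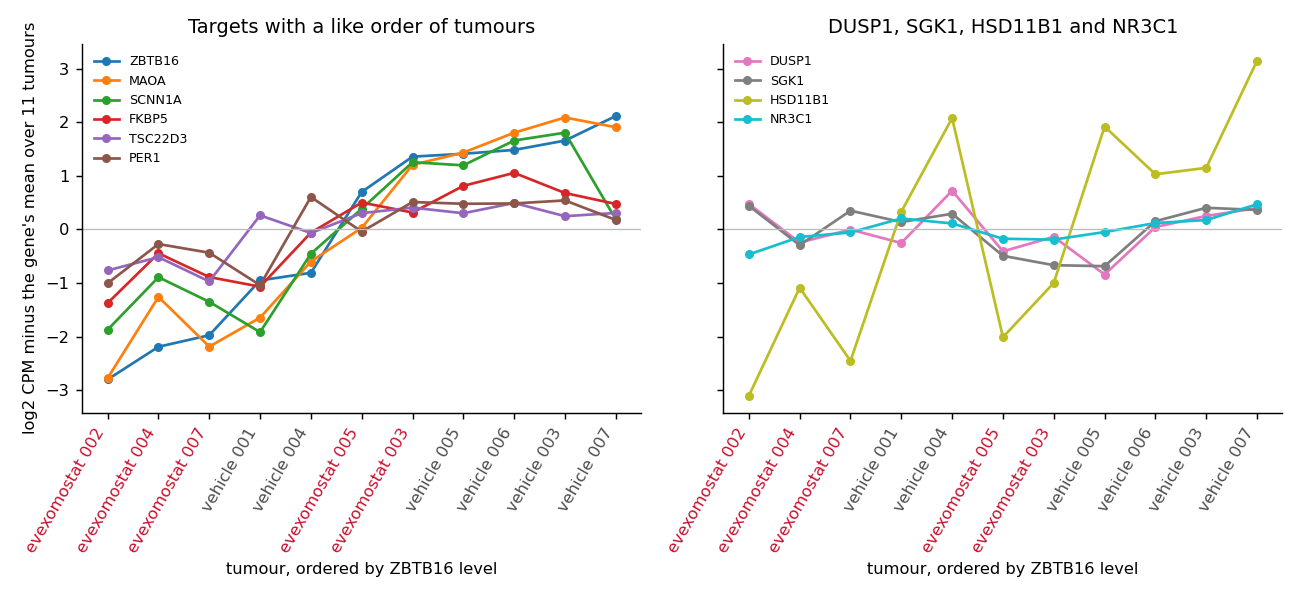
Log2 CPM minus each gene's mean over 11 tumours, with tumours ordered by ZBTB16 level (red labels, evexomostat; grey labels, vehicle). On the left FKBP5, SCNN1A and MAOA have the same 5 lowest tumours as ZBTB16. TSC22D3 and PER1 share 4 of them, and PER1 is highest in vehicle replicate 004. On the right SGK1 is highest in evexomostat replicate 002, where ZBTB16 is lowest, and HSD11B1 is lowest in the 5 evexomostat tumours.

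Likeness to HSD11B1 within the groups was measured on deviations of log2 CPM from the group means in 11 tumours, over 13067 genes with a mean log2 CPM of at least 1. The 5 most alike genes were ABCB6, a porphyrin transporter (Pearson r 0.943, Spearman rho 0.927), MED9, a Mediator subunit (0.939, 0.936), LGALS8, galectin-8 (0.937, 0.936), MPV17, a mitochondrial membrane protein (0.921, 0.891), and ZFP36L2, an RNA-binding protein that promotes mRNA decay (0.92, 0.955). Without the 2 tumours farthest from the median in HSD11B1 (vehicle 001 and 007), r of these 5 genes was 0.864 to 0.906. Each r without both tumours kept the deviations from the means of all 6 vehicle tumours. Of the 5 genes, 3 were also among the first 5 when ranked by rho. Over all genes the median r was -0.00824 and the 95th percentile 0.669, and the 11 points share library depth and the choice of the highest among many genes. By the same measure PER1 had an r of 0.617, FKBP5 0.496, NR3C1 0.458, TSC22D3 0.292, DUSP1 0.0115, KLF9 -0.0907 and SGK1 -0.381, all below that percentile. These values were not stable. Without vehicle 001 alone r was 0.264 for FKBP5 and -0.128 for DUSP1, and without vehicle 001 and 007 it was -0.337 for DUSP1, -0.694 for SGK1, 0.137 for KLF9 and 0.28 for NR3C1. Over the 6 vehicle and the 5 evexomostat tumours the sign differed for TSC22D3 (-0.222 and 0.585), DUSP1 (0.322 and -0.705), SGK1 (0.0172 and -0.849) and KLF9 (-0.638 and 0.395). No r is given for ZBTB16, whose levels lay in separate clusters.

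Among 23 listed genes of glucocorticoid and related steroid metabolism, 12 were tested, HSD11B1 among them. Of the 11 others 0 passed the threshold, where 0.606% of all 16653 tested genes did. At an unadjusted p under 0.05, 5 were lower and 0 higher, beside 8.55% lower over all genes. DESeq2 called 2 lower (AKR1C1 and AKR1C3), beside 449 over the whole table. Fold changes were negative in 10 of the 11, with a median of -0.43. Over all genes 55.4% were negative, with a median of -0.04. AKR1C1, a reductase that inactivates progesterone and other steroids, was at 44.2 CPM in the lowest vehicle tumour, 99.3 at the median and 176.6 in the highest. Under evexomostat it was at 17.2 (002), 35.8 (003), 43.6 (004), 24.8 (005) and 17.3 CPM (007), just below all vehicle tumours, as were 1.64% of all tested genes. Its log2 fold change was -1.90 (SE 0.42, adjusted p 0.0674 in edgeR). AKR1C1 and AKR1C3 (log2 fold change -1.28, adjusted p 0.182 in edgeR) are near copies of each other and of AKR1C2, so reads may be split among them and their single values are uncertain. H6PD, which supplies NADPH to the HSD11B1 enzyme, was at 75.3 ± 14.3 CPM (SD, n = 6) and 60.2 ± 4.45 CPM (SD, n = 5), giving a log2 fold change of -0.32 (SE 0.15, adjusted p 0.360 in edgeR). Leaving out vehicle replicate 001 raised the calls over the whole table from 72 to 537 lower and from 29 to 328 higher, and in that comparison AKR1C1 and H6PD were called lower.

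The genes that hold and assist the receptor were described as a list of 18 receptor and chaperone genes. All 18 were tested and 0 passed, where 0.606% of all tested genes did. Of the 18, 2 were lower and 0 higher at an unadjusted p under 0.05, beside 8.55% lower over all genes. Fold changes were negative in 10 and positive in 8, with a median of -0.02. BAG1, a co-chaperone of HSP70 that can restrain the receptor, had the smallest p of the list. Its means were 147.2 ± 79.4 CPM (SD, n = 6) and 61.3 ± 4.70 CPM (SD, n = 5). The groups did not overlap, where 1.64% of all tested genes were lower without overlap. Its log2 fold change was -1.26 (SE 0.27, adjusted p 0.0644 in edgeR). BAG1 was among the 537 genes lower without vehicle replicate 001. It was also among the 449 genes lower with DESeq2 and the 675 lower with quality weights. Of 14 coregulators, 0 passed, where 0.606% of all tested genes did. Their fold changes were negative in 11 and positive in 3, with a median of -0.25, beside 55.4% negative over all genes. NCOA1 (-0.43), NRIP1 (-0.44) and NCOA2 (-0.32) had the smallest p, at edgeR adjusted values of 0.156, 0.218 and 0.286. The same 537 genes held 3 coregulators (NCOA1, NCOA2 and EP300). The 3 were also called lower with quality weights, and DESeq2 called NCOA1 only.

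Among 45 listed genes that glucocorticoids induce, which include 7 of the genes above, 42 were tested and 0 passed in either direction, where 0.606% of all tested genes did. At an unadjusted p under 0.05, 9 were lower, beside 8.55% of all genes, and 0 higher, and DESeq2 called 4 lower, beside 449 over the whole table. Fold changes were negative in 34 and positive in 8, with a median of -0.44, beside 55.4% negative and a median of -0.04 over all genes. NFKBIA, the inhibitor of NF-kB, was at 240.5 ± 37.2 CPM (SD, n = 6) and 143.2 ± 37.8 CPM (SD, n = 5) (log2 fold change -0.75, SE 0.18, adjusted p 0.0774 in edgeR). Its groups did not overlap, where 1.64% of all tested genes were lower without overlap. TNFAIP3, or A20, which also restrains NF-kB, had a log2 fold change of -1.14 (SE 0.25, adjusted p 0.0631 in edgeR), and STOM, a membrane scaffold protein, one of -0.81 (adjusted p 0.162 in edgeR). NFKBIA and TNFAIP3 are induced by NF-kB as well as by glucocorticoids. Without vehicle replicate 001, when 537 genes were lower and 328 higher over the whole table, 3 of the list were called lower (NFKBIA, TNFAIP3 and MAP3K6) and 1 higher (GADD45B).

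Of 24 listed genes that glucocorticoids are known to repress, 20 were tested and 4 fell: PTGS2, CCL20, ICAM1 and PLA2G4A. Over all tested genes 0.432% were called lower, and no gene of the list was called higher. Fold changes were negative in 16 and positive in 4, with a median of -0.96, beside 55.4% negative and a median of -0.04 over all genes, and 7 of 20 had groups that did not overlap, where 1.64% of all tested genes were lower without overlap. The fall of PTGS2 and CCL20 was known when the list was written, so the list is not independent evidence of its direction. PTGS2, the inducible cyclooxygenase that makes prostaglandins, had a log2 fold change of -3.56 (SE 0.47, adjusted p 0.0138 in edgeR), and the chemokine CCL20 one of -2.80 (SE 0.48, adjusted p 0.0247 in edgeR).

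ICAM1, an adhesion molecule for leukocytes, was at 115.3 CPM in the lowest vehicle tumour (001), 242.1 at the median and 252.2 in the highest, and at 78.2 (002), 80.2 (003), 104.5 (004), 90.6 (005) and 93.1 CPM (007) under evexomostat. All evexomostat tumours lay below all vehicle tumours, and ICAM1 fell with a log2 fold change of -1.25 (SE 0.20, adjusted p 0.0189 in edgeR). PLA2G4A, the cytosolic phospholipase that frees arachidonic acid for prostaglandin synthesis, was at 18.0 CPM in the lowest vehicle tumour, 20.3 at the median and 25.2 in the highest. Under evexomostat it was at 6.70 (002), 9.20 (003), 11.9 (004), 10.9 (005) and 8.15 CPM (007). Both groups were tight and apart, and PLA2G4A fell with a log2 fold change of -1.14 (SE 0.17, adjusted p 0.0151 in edgeR). In each of these 4 genes all 5 evexomostat tumours lay below all 6 vehicle tumours. All 4 passed without vehicle replicate 001, where 6 of the list were among the 537 lower genes and IL11 among the 328 higher, and 0 of the list passed when evexomostat replicate 002, 005 or 007 was left out. In those comparisons the number of genes lower over the whole table was 1, 0 and 1.

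**Figure D4:**
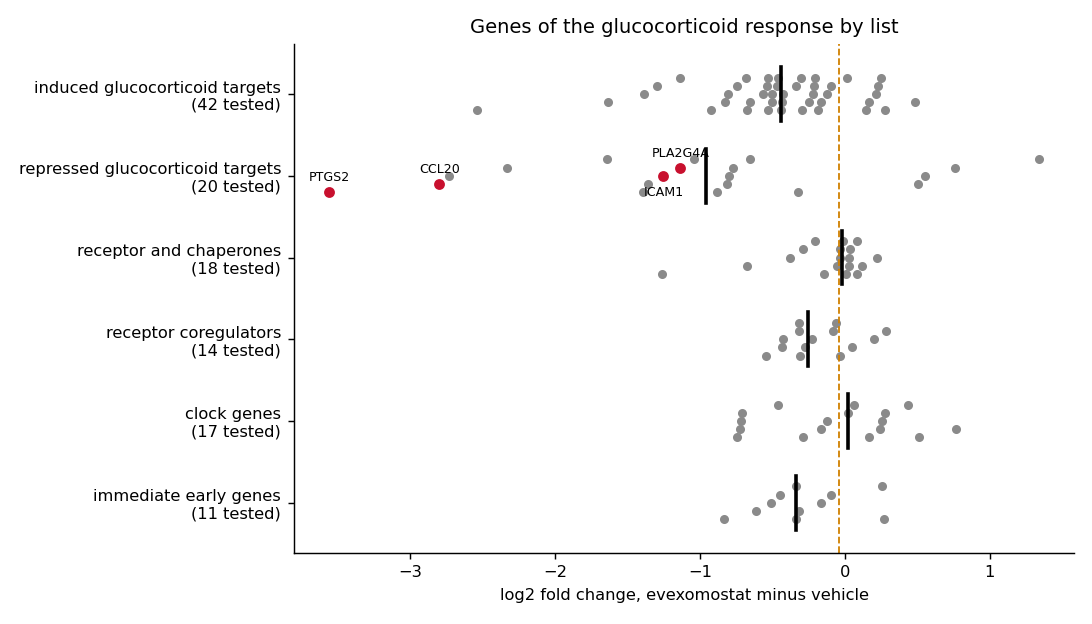
Log2 fold change (evexomostat minus vehicle) of the tested genes of 6 lists, with red for genes past an edgeR adjusted p of 0.05, black bars for list medians and the dashed line for the median of all tested genes (-0.04); the vertical scatter within a row has no meaning. The median lies at -0.44 for induced and -0.96 for repressed targets, and the 4 red points are PTGS2, CCL20, ICAM1 and PLA2G4A.

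Transcription factors and signals known to act on HSD11B1 were also counted. Of 11 listed, 9 were tested and 0 passed, where 0.606% of all tested genes did. TNF had 0 counts in all 11 libraries. Fold changes were negative in 8 and positive in 1, with a median of -0.30, beside 55.4% negative over all tested genes. CEBPB, a known activator of HSD11B1, was at 212.8 ± 79.4 CPM (SD, n = 6) and 147.4 ± 50.8 CPM (SD, n = 5), giving a log2 fold change of -0.53 (SE 0.27, adjusted p 0.428 in edgeR). HIF1A had a log2 fold change of -1.37 (adjusted p 0.141 in edgeR) and NFKB1 one of -0.38 (adjusted p 0.301 in edgeR). NFKB1, RELA and HIF1A were among the 537 genes called lower without vehicle replicate 001. HIF1A was also among the 449 genes lower with DESeq2, and both NFKB1 and HIF1A were among the 675 lower with quality weights.

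Markers of other cells that could carry HSD11B1 were measured in the same tumours, and their part in its level was not tested. The adipocyte gene ADIPOQ had 0 counts in all libraries, which allows at most 0.0764 to 0.132 RPM, and the 7 adipocyte markers summed to 9.31 to 23.9 CPM under vehicle and 9.43 to 17.7 under evexomostat. Within the adipocyte sum, CFD alone was at 7.39 to 17.4 CPM under vehicle and 7.79 to 13.7 under evexomostat. The hepatocyte gene FGB had 0 counts, and ALB, APOA1, APOB and TTR did not exceed 0.527 CPM. SERPINA1, also listed for hepatocytes, was at 7.51 to 16.1 CPM under vehicle and 3.82 to 12.4 under evexomostat. The 7 fibroblast markers summed to 397.2 to 2057 CPM and 494.3 to 1068 CPM, with DCN at most 1.36 CPM, and the 7 leukocyte markers to 48.4 to 94.0 and 62.7 to 73.0 CPM, with CD3E at 0. COL3A1, in the fibroblast list, was at 186 to 1750 CPM under vehicle and 238 to 708 under evexomostat. CD68, in the leukocyte list, was at 22.7 to 56.5 and 23.9 to 42.1 CPM. Of these 4 lists, 0 genes passed the threshold, where 0.606% of all tested genes did. Whether mouse reads were removed before counting is not given in the sources used here, so these sums may hold host RNA.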

How the data were processed

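RNA of 11 xenograft tumours (6 vehicle, 5 evexomostat) was sequenced as paired reads of 150 bases. Groups and replicate numbers come from the sample titles. Per the submitters' processing notes, bcl2fastq 2.17, STAR 2.7.5c, featureCounts (Subread) and edgeR were used with GRCh37/hg19. The use of strand and the treatment of mouse reads are not given in the sources used here. The deposited table of raw counts per gene was the input. The deposited RPM values equal count over library total (largest difference 9e-13). The authors' deposited table holds log2 fold changes and p-values, with settings not given.

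Genes were kept by filterByExpr (minimum count 10, total 15), which left 16653 of 28152. Counts were scaled by TMM and compared with edgeR 4.0.16 (quasi-likelihood F-test, no covariates, R 4.3.3), with Benjamini-Hochberg adjustment over all 16653 genes at 0.05. SEs of log2 fold changes were derived from the F statistics. In simulated counts with 200 of 16653 genes changed, edgeR recovered 60% of 2-fold and 90% of 4-fold changes, with 5.06% false calls. Alternatives were upper quartile and RLE scaling, DESeq2 1.42.0, limma-voom (limma 3.58.1) with and without quality weights, no filter, limma-trend after adding 1 or 0.1 to the RPM, a replicate block, and leaving out each library. The numbers 003, 004, 005 and 007 are used in both groups. They were not treated as pairs in the main comparison, and whether they pair the tumours was not settled.

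The 9 genes and all gene lists were chosen with earlier results of these data known. Named are the 9 genes, every called gene of a list and its 3 tested genes of smallest p, close relatives of the 9 genes, and the 5 genes most alike to HSD11B1. Genes outside this rule (SCNN1A, MAOA, H6PD, HSD11B2 and the genomic neighbours) were chosen after their values were seen. Human genes of the RefSeq tables (GRCh38.p14) served for promoter sequence only, since the counts are on another build.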

Additional observations from a re-analysis of the deposited data

Results flagged for a closer look

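In 40 comparisons of the highest and lowest tumour of a group with the rest of that group, 2 stood apart, and 2.0 would by chance. The SGK1 level was 100.1 CPM in vehicle replicate 005 and lay at 177.2 to 213.1 CPM in the other 5 vehicle tumours. BAG1 reached 305.6 CPM in vehicle replicate 001, with 95.53 to 134.2 CPM in the others, and in this library the 100 most abundant genes took up 23.91% of all counts. What set these values apart was not tested.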

How the results depend on the processing

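Of the 168 results of the 8 genes other than HSD11B1 under 21 alternatives, 167 kept their direction and their side of the threshold. The exception was PER1 with quality weights, which made 1 of 8 lower. HSD11B1 had log2 fold changes of -3.88 to -2.92 over the 21 alternatives. The 101 calls over all genes were 29 higher and 72 lower. DESeq2 gave 200 higher and 449 lower, quality weights 384 and 675. Upper quartile scaling gave 42 lower and 28 higher, and limma-trend gave 43 higher and 31 lower with log2(RPM + 1) and 38 and 30 with log2(RPM + 0.1), more higher than lower, where the median of all genes moved from -0.04 to 0.08 and 0.10 (log2). Leaving out 1 library gave 1 to 328 higher and 0 to 537 lower. The 0 arose without evexomostat replicate 005, with 1833 genes at an unadjusted p under 0.05, and the 328 and 537 without vehicle replicate 001. The repressed targets had 0 to 6 lower genes over the same comparisons, 10 with DESeq2 and 9 with quality weights. The cause was not tested.

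Deviations of same-numbered tumours correlated at -0.272, 0.0664, 0.0489 and -0.0998. These 4 values show no likeness within a number, but they are too few to settle whether the tumours are pairs. A replicate block on these 8 libraries gave 24 higher and 83 lower, and the same 8 libraries with no replicate block 225 and 508, with HSD11B1 at -3.67 and -3.78 and none of the other 8 genes called. FKBP4 was at -0.12 and -0.11 and DUSP5 at -0.0556 and -0.00308 with and without the block, against 0.12 and 0.25 in all 11 libraries.

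Other reversals were in genes near 0. TSC22D1 was at 0.0571 with quality weights and 0.0545 and 0.0549 with the RPM settings, and TSC22D4 at -0.048 with quality weights. Without 1 library, FKBP4 ranged from -0.00269 to 0.242, TSC22D1 from -0.154 to 0.0226, TSC22D4 from -0.0307 to 0.125, DUSP6 from -0.491 to 0.153 and TRAF3IP3 from -0.296 to 0.0313. Depth limits HSD11B2 and HSD11B1-AS1, with at most 16 and 41 counts in a library.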

Other observations

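Close relatives of the 9 genes did not share a direction. Of 19 listed, 15 were tested and 0 passed an edgeR adjusted p of 0.05, where 0.606% of all tested genes did. At an unadjusted p under 0.05 it was also 0, beside 13.4% of all tested genes, and DESeq2 called 0. Fold changes were negative in 7 and positive in 8, with a median of 0.03. The mineralocorticoid receptor gene NR3C2, whose product also binds cortisol, stood at 5.05 ± 2.35 CPM (SD, n = 6) under vehicle, and at 4.14 ± 0.69 CPM (SD, n = 5) under evexomostat (log2 fold change -0.29, SE 0.30, adjusted p 0.749 in edgeR). The clock repressors PER2 and PER3 had log2 fold changes of 0.28 (SE 0.21) and 0.24 (SE 0.22), beside -0.46 for PER1. Whether PER1 differs from PER2 and PER3 was not tested. TSC22D2 was at 0.29 (SE 0.15, adjusted p 0.430 in edgeR) and KLF13 at -0.34 (SE 0.25, adjusted p 0.627 in edgeR).

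Of 17 clock genes, 0 passed the threshold, where 0.606% of all tested genes did. DESeq2 called 1 lower (ARNTL), beside 449 over the whole table. At an unadjusted p under 0.05, 2 were higher and 4 lower, beside 802 higher and 1423 lower of all 16653 tested genes. ARNTL, the activator that drives PER genes, had a log2 fold change of -0.73 (SE 0.19, adjusted p 0.0992 in edgeR), BHLHE40 one of -0.72 (SE 0.26, adjusted p 0.238 in edgeR) and TEF one of 0.43 (SE 0.17, adjusted p 0.284 in edgeR). Of 11 tested immediate early genes, which respond to growth factors and stress and include DUSP1, 0 passed, where 0.606% of all tested genes did. Their fold changes were negative in 9 and positive in 2, with a median of -0.34, beside 55.4% negative over all tested genes. FOS was at 17.8 ± 6.31 CPM (SD, n = 6) and 11.7 ± 1.61 CPM (SD, n = 5), giving a log2 fold change of -0.61 (SE 0.22, adjusted p 0.237 in edgeR). JUNB had a log2 fold change of -0.45 (SE 0.15, adjusted p 0.211 in edgeR) and FOSB one of -0.83 (SE 0.32, adjusted p 0.267 in edgeR). The hour at which tumours were taken is not given in the sources used here, and both clock and immediate early genes vary with it.

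Genes that lie beside HSD11B1 on chromosome 1 were looked at after its values were seen. G0S2, an inhibitor of fat breakdown, was at 21.4 ± 9.33 CPM (SD, n = 6) and 8.23 ± 3.05 CPM (SD, n = 5), with overlapping groups (log2 fold change -1.38, SE 0.33, adjusted p 0.0781 in edgeR). LAMB3, a laminin chain, had a log2 fold change of -0.97 (SE 0.37, adjusted p 0.267 in edgeR) and TRAF3IP3 one of -0.16 (SE 0.32, adjusted p 0.891 in edgeR), the latter at 0.38 ± 0.14 CPM (SD, n = 6) under vehicle.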
